A study of Drosophila melanogaster with 12 samples.

Results

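The genes described here are 10 members of the pathway that sets sex and X chromosome dosage in *Drosophila melanogaster*: the regulators *Sxl*, *tra*, *dsx* and *msl-2*, the noncoding RNAs *roX1* and *roX2*, and the female fat body genes *Yp1*, *Yp2*, *Yp3* and *fit*. They were chosen by symbol, and all 10 were found among the 17697 genes of each of the 12 libraries. Each library was made from a pool of 3 w1118 animals. Tracheae were dissected by hand from females aged 5 to 7 days for 4 libraries and from mid-stage 3rd instar larvae, not sorted by sex, for 4 more, and the last 4 were made from intact females of the adult age. All animals were untreated. The comparison of adult with larval tracheae therefore changes stage and sex composition together, and these cannot be told apart. The spread between libraries is that between pools, since no library holds a single animal.

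In *Drosophila*, the number of X chromosomes sets the state of *Sxl*, an RNA-binding splicing factor that is active in females. Sxl protein directs female splicing of *tra*, Tra protein with its partner Tra2 directs female splicing of *dsx*, and the Dsx transcription factors set sex-specific expression in target tissues, among them the yolk protein genes in the female fat body. Sxl protein also represses translation of *msl-2*, whose product is assembled in males with the *roX* RNAs into the complex that raises transcription from the single male X. *Sxl*, *tra*, *dsx* and *msl-2* are thus controlled largely through splicing or translation, which a read count per gene does not show.

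Libraries held 5139980 to 14962142 gene reads per adult trachea library, 5017919 to 8169848 per larval library and 5397732 to 9880844 per whole fly library. A limit of 3 reads in a library corresponds to 0.201 to 0.598 RPM (reads scaled to 1000000 gene reads). Markers were read first, because a second name carried by the files can be taken for another group. Summed over 6 tracheal marker genes, the level was 549 to 1695 RPKM (reads per kilobase of exon and 1000000 gene reads) in larval tracheae, 19.6 to 49.4 RPKM in adult tracheae and 8.71 to 21.1 RPKM in the whole flies. The FGF receptor gene *btl*, a defining tracheal marker, stood at 45.9 ± 6.79 RPKM (SD, n = 4) in larval tracheae, 4.42 ± 1.86 RPKM in adult tracheae and 0.356 ± 0.345 RPKM in the whole flies. The tracheal fate gene *trh* had an RPKM of 0 in the whole flies. Of 20 ovary and eggshell genes, 11 had no reads in any larval library. Y-linked genes summed to at most 0.493 RPKM in any library, and 4 of 11 had no reads in each group. The gene reads of the other 7 numbered 2496 in adult tracheae, 2221 in larval tracheae and 357 in the whole flies, and nearly all of them lay outside exons.

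The members fell into 3 kinds of pattern across the libraries. The yolk protein genes and *fit* were high in both adult groups and at or near 0 in larval tracheae. *roX1* was high in larval tracheae and low in both adult groups, while *dsx* had most of its few reads in adult tracheae. *Sxl*, *tra* and *msl-2* were read at low to moderate levels in all 3 groups, which overlapped. Among these genes only *Sxl* was called, as higher in larval tracheae than in the whole flies.

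**Figure D1:**
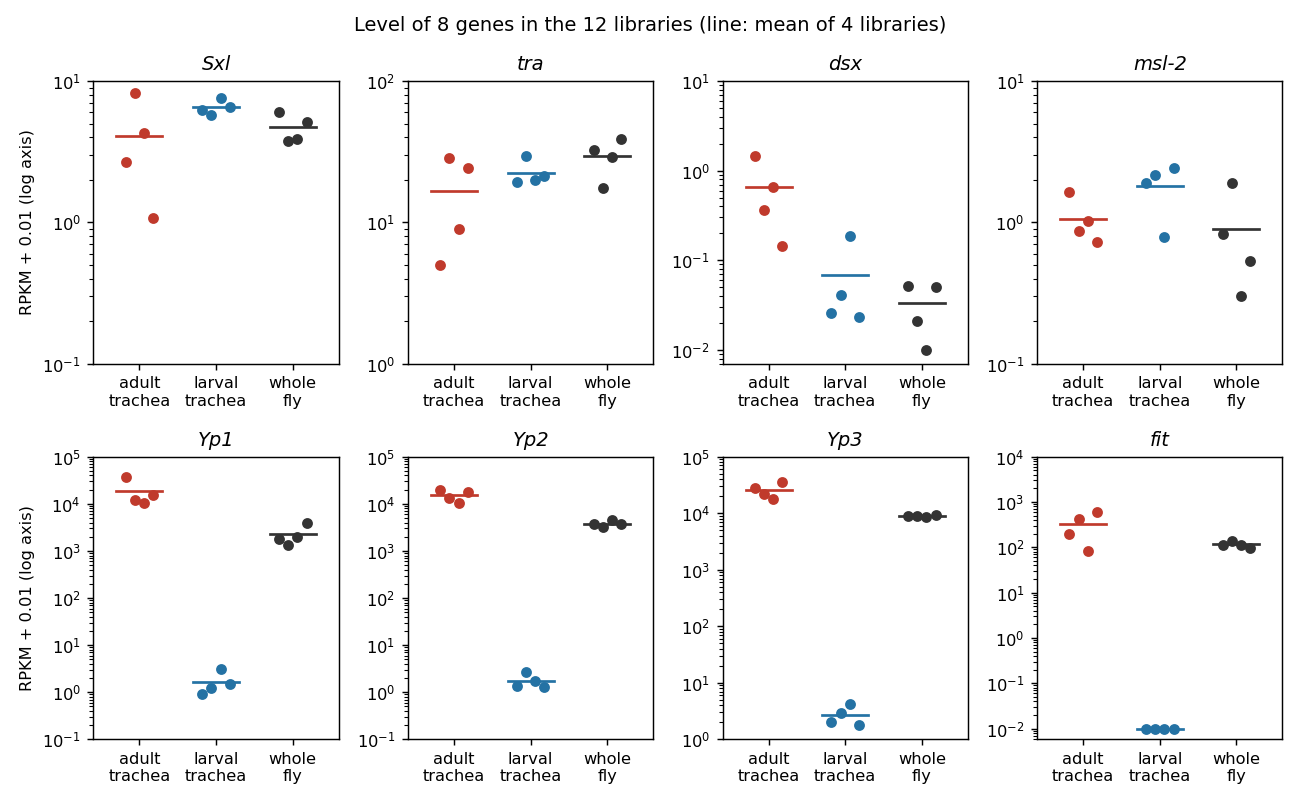
RPKM of the 8 members with annotated exons in each library on log axes, with 0.01 added so that values of 0 can be drawn. Points are the 4 libraries of a group (replicates 1 to 4 from left to right) and lines are their means, and in the panels of *Yp1*, *Yp2*, *Yp3* and *fit* the larval tracheae lie far below both adult groups without overlap.

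*Yp1*, *Yp2* and *Yp3* encode the yolk proteins, which the adult female fat body and the follicle cells of the ovary secrete for uptake by the oocyte. All of them lie on the X chromosome of BDGP6. *Yp1* (FBgn0004045) covers X from 10053811 to 10055498 on the plus strand. *Yp2* (FBgn0005391) is its neighbour from 10050951 to 10052636 on the minus strand. *Yp3* (FBgn0004047) lies apart from them, from 13759546 to 13761547 on the plus strand.

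*Yp1* was at 37745, 12337, 10435 and 15213 RPKM in adult tracheae, at 0.904, 1.21, 3.09 and 1.52 RPKM in larval tracheae and at 1817, 1312, 1963 and 4006 RPKM in the whole flies. Every adult trachea library was above every whole fly, and every larval library was below both. *Yp2* was at 19375, 13014, 10346 and 18201 RPKM in adult tracheae, at 1.35, 2.67, 1.72 and 1.29 RPKM in larval tracheae and at 3790, 3238, 4443 and 3701 RPKM in the whole flies. The 3 groups were again separate. *Yp3* was at 27503, 22022, 18055 and 36279 RPKM in adult tracheae, at 2.03, 2.91, 4.27 and 1.77 RPKM in larval tracheae and at 8887, 9030, 8714 and 9366 RPKM in the whole flies. For *Yp3* the whole flies spanned a narrow range and the adult tracheae a wide one, with no overlap. The same separation of the libraries was seen in 11.5% of all genes for adult tracheae above whole flies, 19.5% for adult above larval tracheae and 38.9% for larval tracheae below whole flies.

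In the comparison of adult tracheae with whole flies, *Yp1* was higher in the tracheae by 3.63 ± 0.52 on the log2 scale (SE, edgeR's quasi-likelihood test, Benjamini-Hochberg adjusted p = 0.00169), a fitted fold of 12.4. Without adult trachea replicate 1 it was 2.97, and in limma on log2(RPKM + 0.1) 2.99, with the call kept in both. *Yp2* was higher by 2.53 ± 0.27 (adjusted p = 0.000612), or 5.76-fold, and *Yp3* by 2.03 ± 0.24 (adjusted p = 0.000739), or 4.09-fold. Against larval tracheae, the log2 differences were 13.47 ± 0.85 for *Yp1* (adjusted p = 1.46e-05, and 12.86 without adult trachea replicate 1), 13.05 ± 0.55 for *Yp2* (adjusted p = 2.20e-06) and 13.17 ± 0.57 for *Yp3* (adjusted p = 2.20e-06). Larval tracheae were in turn below whole flies, with log2 differences of -9.82 ± 0.59 for *Yp1* (adjusted p = 7.25e-07), -10.45 ± 0.36 for *Yp2* (adjusted p = 7.12e-08) and -11.07 ± 0.39 for *Yp3* (adjusted p = 7.12e-08). In bulk RNA, more cells of a type and more RNA per cell cannot be told apart.

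Together the yolk protein genes took 15.7%, 8.88%, 7.26% and 12.9% of all exon reads in the adult tracheae and 2.55% to 3.15% in the whole flies. They were thus among the most abundant transcripts of the dissected tissue. By RPKM *Yp1* ranked 2nd, 5th, 9th and 4th of all genes in the adult trachea libraries. The balance among the genes differed between libraries as well. The ratio of *Yp1* to *Yp3* in RPKM was 1.37, 0.560, 0.578 and 0.419 in adult tracheae against 0.204, 0.145, 0.225 and 0.428 in the whole flies. By RPKM, which counts all exon reads, *Yp1* exceeded *Yp3* in adult trachea replicate 1, and whole fly replicate 4 lay within the range of the tracheae. Of the *Yp1* exon reads, 43.0% to 44.5% were counted as unique in adult tracheae and 41.6% to 47.6% in the whole flies, whereas nearly all those of *Yp2* and *Yp3* were. On unique reads per kilobase, the ratio of *Yp1* to *Yp3* in adult trachea replicate 1 was 0.591. That measure drops the *Yp1* reads not counted as unique but still divides by the full exon length. It therefore cannot say which gene was higher in that replicate. In all other libraries *Yp1* was below *Yp3* by both measures. An annotated antisense RNA, *CR45601*, overlaps 875 bases of *Yp1* and had no reads in any library.

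Markers of the tissues that make yolk protein, and of haemocytes, were read beside these values. The sum over 7 fat body markers was 263 to 458 RPKM in adult tracheae, 25.05 to 303 RPKM in larval ones and 198 to 378 RPKM in the whole flies. No marker was at 0 in any group. The sums combine markers that went opposite ways between adult tracheae and whole flies. Mean RPKM in adult tracheae and whole flies was 77.4 and 4.43 for *apolpp* and 6.30 and 1.04 for *Apoltp*. It was 64.8 and 21.5 for *FASN1* and 148 and 54.5 for *Lsd-1*. The other way went *mag* (2.98 and 104), *to* (3.18 and 15.4) and *tobi* (30.8 and 66.6). In adult tracheae 4 of the 7 were higher and 2 lower than in the whole flies, and 4 were higher and 1 lower than in larval tracheae. The highest larval mean among them was that of *to*, at 109 ± 105 RPKM (SD, n = 4), against 3.18 ± 2.89 RPKM in adult tracheae. The sum over 20 ovary and eggshell genes was 9051, 291, 101 and 13958 RPKM in the adult tracheae, 3.02 to 12.5 RPKM in larval ones and 13193 to 34056 RPKM in the whole flies. Adult trachea replicates 2 and 3, with the lowest ovary sums, had *Yp3* at 22022 and 18055 RPKM. Replicates 1 and 4, with the highest ovary sums of the adult tracheae, had it higher, at 27503 and 36279 RPKM. All of these values were above every whole fly. Haemocyte markers summed to 35.5 to 85.8 RPKM in adult tracheae and 4.00 to 9.99 RPKM in the whole flies. The part of these tissues in the yolk protein reads was not tested.

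*fit* (FBgn0038914, chromosome 3R from 21883924 to 21884454, minus strand) encodes a secreted, female-enriched protein of the fat body tissue around the head that signals protein satiety. It was at 197, 413, 85.1 and 618 RPKM in adult tracheae and at 114.8, 136, 113 and 98.4 RPKM in the whole flies, and had no exon read in any larval library. The adult groups overlapped, since adult trachea replicate 3 was below all whole flies and the other 3 were above. The fitted difference between adult tracheae and whole flies was 1.86 ± 0.42 on the log2 scale (edgeR, adjusted p = 0.0112), and it did not pass in limma on log2(RPKM + 0.1) (1.15, adjusted p = 0.113). With 3 reads over the group as the larval floor, *fit* was at least 1559-fold higher in adult than in larval tracheae (edgeR, adjusted p = 0.00013) and at least 540.04-fold lower in larval tracheae than in the whole flies (adjusted p = 6.24e-06).

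**Figure D2:**
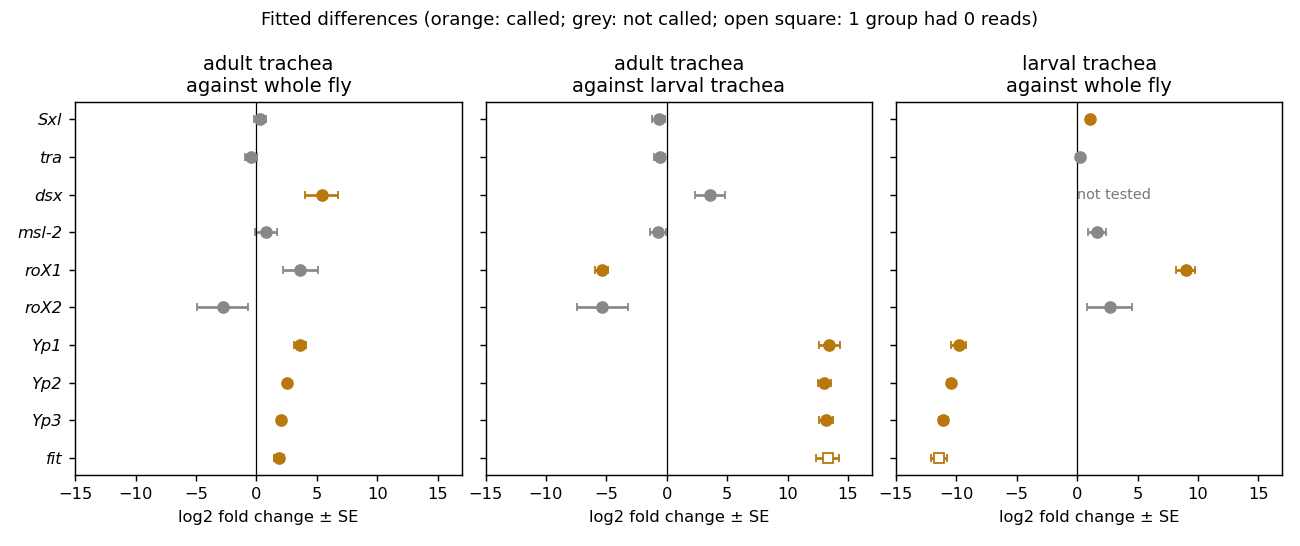
Log2 fold change with its standard error for the members in each comparison (points, from edgeR; exon reads, or gene reads for *roX1* and *roX2*). Called genes are orange and others grey, open squares mark *fit* where 1 group had no reads, and *Sxl*, *tra* and *msl-2* lie near 0 in the comparison of adult with larval tracheae, where *Yp1* lies at 13.47 and *roX1* at -5.40.

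*roX1* and *roX2* are the noncoding RNAs of the male dosage compensation complex. The deposited tables give neither an annotated exon, so that RPKM and exon reads are 0 by construction, and total gene reads were used instead. *roX1* (FBgn0019661) lies on X from 3857230 to 3862697 on the minus strand and *roX2* (FBgn0019660) on X from 11579065 to 11580432 on the plus strand, both on BDGP6.

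*roX1* had 386, 1306, 251 and 981 reads in larval tracheae, or 56.2, 182, 50.02 and 120 RPM. It had 13, 32, 22 and 27 reads in adult tracheae, or 2.53, 4.40, 1.47 and 2.08 RPM, and 0, 3, 5 and 0 reads in the whole flies. All larval libraries, whose larvae were not sorted by sex, were above all libraries from adult females. Each adult trachea library was above each whole fly, so the groups kept the order larval tracheae, adult tracheae, whole flies.

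Adult tracheae were below larval tracheae in *roX1* by a log2 difference of -5.40 ± 0.54 (edgeR on gene reads, adjusted p = 0.000116), and this passed in 18 of 18 alternatives. Of all genes tested by gene reads, 9.03% were called lower in this direction and 11.1% had no overlap. Larval tracheae were above whole flies by 8.98 ± 0.78 (adjusted p = 7.05e-06), where 22.9% of genes were called higher and 16.5% had no overlap, but this size rests on 8 reads in the 4 whole flies and was 9.94 without whole fly replicate 3. Between adult tracheae and whole flies the difference of 3.64 ± 1.46 did not pass (edgeR, adjusted p = 0.0847), although DESeq2 (adjusted p = 0.0186) and edgeR with all 3 groups in 1 fit (adjusted p = 0.00462) called it. Of all genes tested in that comparison, 16.7% were called higher and 8.05% lower, and 11.9% had every adult trachea library above every whole fly.

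The gene *ec*, on the opposite strand, shares 392 bases with *roX1*, and the strand of the reads is not stated in the sources used here. *ec* had 215, 87, 158 and 200 gene reads in the larval libraries, and 25, 19, 51 and 0 in adult tracheae. The part of *ec* in the *roX1* reads was not tested. Testis markers were read beside *roX1*. Since only tracheae were dissected from the larvae, the number of males cannot be read from these markers. Over 10 of them the sum was 0.410 to 6.52 RPKM in larval tracheae, 0.374 to 3.12 RPKM in adult tracheae and 0 to 4.10 RPKM in the whole flies, and 6 of the 10 had no reads in larvae. The number of male larvae in each pool is not stated in the sources used here.

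*roX2* was read in few libraries. It had 0, 271, 0 and 71 reads in larval tracheae, 0, 0, 0 and 15 in adult tracheae and 8, 0, 65 and 0 in the whole flies. The 2 larval libraries with *roX2* reads were also those with the most *roX1*. The groups overlapped, and no comparison passed in edgeR on gene reads (adjusted p = 0.0884 for adult against larval tracheae, log2 difference -5.35 ± 2.11; adjusted p = 0.259 for larval tracheae against whole flies; adjusted p = 0.341 for adult tracheae against whole flies). Where a library had 0 reads, the level was not detectable at its depth.

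**Figure D3:**
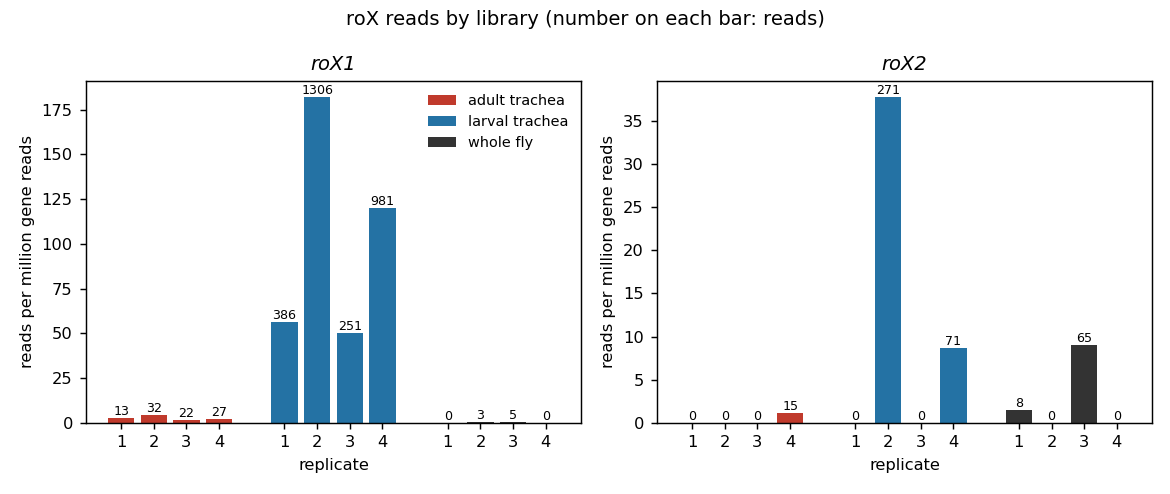
RPM of *roX1* and *roX2* in each library, with the number of reads printed on each bar. Bars start at 0, replicates 1 to 4 of each group stand side by side, and the 4 larval trachea bars of *roX1* (50.02 to 182) exceed all bars of the other groups.

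*dsx* (FBgn0000504, chromosome 3R from 7924323 to 7967408, minus strand) encodes the transcription factors at the end of the somatic sex hierarchy. It was the rarest member with exons. It had 67, 23, 87 and 16 exon reads in adult tracheae, 1, 2, 8 and 1 in larval tracheae and 2, 1, 0 and 2 in the whole flies. Its level was 1.44, 0.350, 0.642 and 0.136 RPKM in adult tracheae, 0.0161, 0.0308, 0.176 and 0.0135 RPKM in larval tracheae and 0 to 0.0409 RPKM in the whole flies. By exon reads all adult trachea libraries were above all whole flies, as in 11.5% of all genes tested. The lowest adult trachea library was below larval replicate 3. By gene reads the adult groups overlapped. Whole fly replicate 2, with 43 of 44 reads in introns, was at 4.45 RPM and adult trachea replicate 4 at 2.77 RPM.

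*dsx* was higher in adult tracheae than in the whole flies by 5.40 ± 1.35 on the log2 scale (edgeR, adjusted p = 0.0171), against only 5 exon reads in the 4 whole flies. The call was lost without adult trachea replicate 1 (4.68, adjusted p = 0.0578) and without whole fly replicate 2 (5.05, adjusted p = 0.0534). It was also lost in limma on log2(RPKM + 0.1) (2.28, adjusted p = 0.0566) and on log2(RPKM + 1) (0.62, adjusted p = 0.124), and on total gene reads the difference was 3.43 (edgeR, adjusted p = 0.0321). Against larval tracheae the difference of 3.59 ± 1.24 did not pass (edgeR, adjusted p = 0.0539). It passed in 6 of 22 alternatives, with larval replicate 3 left out among them (5.03, adjusted p = 0.0239). With 12 and 5 exon reads, larval tracheae and whole flies were not compared. Neuron markers, whose tissue contains *dsx*-expressing cells, summed to 5.19 to 40.4 RPKM in adult tracheae, 0.342 to 1.32 RPKM in larval ones and 1.08 to 2.83 RPKM in the whole flies, and their part in the *dsx* reads was not tested.

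*Sxl* (FBgn0264270, chromosome X from 7074550 to 7098053, minus strand) was read in every library. It stood at 2.65, 8.26, 4.26 and 1.06 RPKM in adult tracheae, at 6.24, 5.70, 7.59 and 6.50 RPKM in larval tracheae and at 6.01, 3.74, 3.88 and 5.14 RPKM in the whole flies. The adult tracheae spread over the whole range of the other groups. Adult tracheae did not differ past the threshold from whole flies (log2 difference 0.29 ± 0.52, edgeR adjusted p = 0.705) or from larval tracheae (-0.68 ± 0.54, adjusted p = 0.398). Larval tracheae were above whole flies by 1.09 ± 0.26 (edgeR, adjusted p = 0.00496), but the groups overlapped, and the call was lost with all 3 groups in 1 fit (adjusted p = 0.085) and in limma on log2(RPKM + 0.1) (0.48, adjusted p = 0.204).

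The reads of *Sxl* were divided differently between exons and introns in the groups. Intron reads made up 42.7%, 36.8%, 42.4% and 46.4% of its gene reads in adult tracheae, 36.3%, 31.01%, 33.2% and 25.4% in larval tracheae and 2.30%, 0.875%, 0.775% and 6.88% in the whole flies. None of the groups overlapped, and both kinds of trachea lay far above the whole flies. This measure was chosen after its values were seen and is given without a test. Among 3450 genes with at least 50 gene reads in every library and more than 1 exon, 6.61% had a higher intron share in all adult tracheae than in all whole flies, 3.13% in all adult than in all larval tracheae, and 7.80% in all larval tracheae than in all whole flies. Over all genes, intron reads were 5.65% to 8.501% of gene reads in adult tracheae, 7.81% to 8.85% in larval ones and 4.86% to 5.83% in the whole flies. Counted by gene reads, *Sxl* was above whole flies by 0.93 in adult tracheae (edgeR, adjusted p = 0.179) and by 1.55 in larval tracheae (adjusted p = 0.000585). Which exons the intron reads lay next to, and thus the sex-specific splice forms, is not shown by the counts.

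**Figure D4:**
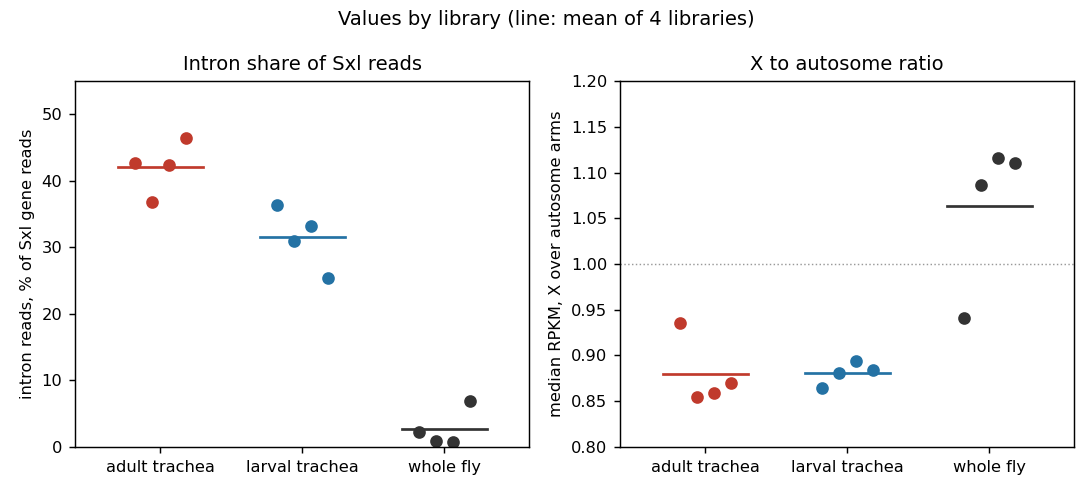
Left, intron reads as a percentage of all *Sxl* gene reads in each library. Right, the median RPKM of X-linked genes divided by that of autosomal genes (the axis starts at 0.80 and the dotted line marks 1.00). Points are libraries (replicates 1 to 4 from left to right) and lines means of 4, and the whole flies lie below the tracheae on the left and, on average, above them on the right.

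*tra* (FBgn0003741, chromosome 3L from 16590059 to 16591050, minus strand) encodes the splicing factor that acts with Tra2. It was at 4.97, 28.6, 8.99 and 24.3 RPKM in adult tracheae, at 19.4, 29.4, 19.9 and 21.3 RPKM in larval tracheae and at 32.4, 17.6, 29.1 and 39.1 RPKM in the whole flies. All groups overlapped, and adult trachea replicates 1 and 3 were the lowest libraries. No comparison passed (edgeR, adjusted p = 0.547 for adult tracheae against whole flies, 0.393 for adult against larval tracheae and 0.624 for larval tracheae against whole flies).

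*msl-2* (FBgn0005616, chromosome 2L from 3462218 to 3466112, minus strand) encodes the limiting subunit of the dosage compensation complex. It stood at 1.05 ± 0.396 RPKM (SD, n = 4) in adult tracheae, 1.81 ± 0.720 RPKM in larval tracheae and 0.883 ± 0.709 RPKM in the whole flies, so its RNA was present in the all-female libraries too. The groups overlapped. Adult tracheae differed from whole flies by 0.83 ± 0.91 (edgeR, adjusted p = 0.525) and from larval tracheae by -0.71 ± 0.67 (adjusted p = 0.486). Larval tracheae were above whole flies by 1.66 ± 0.76, which did not pass in edgeR (adjusted p = 0.0927) but did in DESeq2 (adjusted p = 0.0436) and without whole fly replicate 2 (2.39, adjusted p = 0.0415).

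Counted by exon reads, 5 of 8 members tested were higher in adult tracheae than in the whole flies (*dsx*, *Yp1*, *Yp2*, *Yp3* and *fit*) and 0 were lower, against 16.1% of all genes called higher and 7.36% lower. The count of 0 lower also held at an unadjusted p under 0.05 in edgeR and in DESeq2, with 0 members in each. Against larval tracheae, 4 of 8 were higher (the yolk protein genes and *fit*) and 0 lower, with 19.3% of all genes called higher and 8.96% lower. The count of 0 lower was again 0 at an unadjusted p under 0.05 in edgeR and in DESeq2. In larval tracheae against whole flies, 1 of 7 was higher (*Sxl*) and 4 lower, with 22.1% of all genes called higher and 27.4% lower. The median log2 difference of the members was 1.95, 8.32 and -9.82 in these comparisons, beside 0.14, 0.19 and -0.26 over all genes. In adult against larval tracheae no member lay near 8.32. There the yolk protein genes and *fit* were at 13.05 to 13.47, *dsx* at 3.59, and *Sxl*, *tra* and *msl-2* at -0.71 to -0.59. The comparisons share libraries and are not independent of each other. The median over all genes moved with the scaling, to -0.37, 0.17 and -0.87 in limma on log2(RPKM + 0.1).

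Other genes of the pathway were read from lists of 9 X-counting genes, 10 genes of *Sxl* splicing, 7 genes of the *tra* and *dsx* branch and 9 genes of the dosage compensation complex and *msl-2* control. Together, 3 of 30 tested were higher and 5 lower in adult tracheae than in the whole flies, 1 of 31 higher and 3 lower in adult than in larval tracheae, and 7 of 31 higher and 4 lower in larval tracheae than in the whole flies. Set against the percentages of all genes above, the 5 of 30 lower was a larger share than 7.36%, the 3 of 31 lower and the 7 of 31 higher were close to 8.96% and 22.1%, and the others were smaller.

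Among X-counting genes, *emc*, an inhibitor of basic helix-loop-helix factors, was at 46.4 ± 10.8 RPKM in larval tracheae, 16.2 ± 10.6 RPKM in adult tracheae and 2.30 ± 2.20 RPKM in the whole flies. It was higher in larval tracheae than in the whole flies by 4.94 ± 0.83 (edgeR, adjusted p = 0.000662). In adult tracheae it was higher by 3.37 (edgeR, adjusted p = 0.0447), a call that held in 12 of 21 alternatives and was lost on leaving out any of the 4 whole flies or adult trachea replicate 1, 2 or 3 (adjusted p = 0.0512 to 0.107). *sc*, a basic helix-loop-helix X-linked counting gene, had 95 exon reads in 3 of 4 larval libraries, 2 in the whole flies and 0 in adult tracheae. It was at least 52.2-fold lower in adult than in larval tracheae (edgeR, adjusted p = 0.0311, in 13 of 20 alternatives), lost without larval trachea replicate 1, 2 or 3 or adult trachea replicate 2 or 4, with adjusted p = 0.0546 to 0.0689. *sc* and *her*, a zinc finger gene, were also higher in larval tracheae than in the whole flies, by 6.18 ± 1.81 (adjusted p = 0.0162) and 3.24 ± 0.91 (adjusted p = 0.0131).

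Of 10 genes of *Sxl* splicing, *Mettl14*, a subunit of the RNA methyltransferase, was lower in adult tracheae than in the whole flies (-1.22, edgeR, adjusted p = 0.0382) and in larval tracheae than in the whole flies (-0.78, adjusted p = 0.0489). These calls held in 15 of 22 and 9 of 21 alternatives and were lost on leaving out most single libraries: for adult tracheae any of adult trachea replicates 1 to 3 or whole fly replicates 1 to 3 (adjusted p = 0.0699 to 0.0919), and for larval tracheae any larval library or whole fly replicates 1 to 3 (adjusted p = 0.0503 to 0.160). *nito*, a partner of that enzyme, was lower in larval tracheae than in the whole flies by a log2 difference of -3.41 ± 0.91 (adjusted p = 0.0104), although whole fly replicate 1 lay within the larval range. Between adult and larval tracheae 0 of the 10 were called, with 0 also at an unadjusted p under 0.05 in edgeR and 0 in DESeq2.

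In the *tra* and *dsx* branch, the gene with the clearest pattern was *fru*, the zinc finger factor that is the other sex-specifically spliced target of Tra. It was at 17.7, 5.47, 15.9 and 7.54 RPKM in larval tracheae, at 0.253, 1.00, 0.678 and 0.238 RPKM in adult tracheae and at 0 to 0.0227 RPKM in the whole flies, with no overlap between any groups. It was lower in adult than in larval tracheae by a log2 difference of -4.39 ± 0.67 (edgeR, adjusted p = 0.00108), and higher than in the whole flies in adult tracheae by 5.87 ± 1.12 (adjusted p = 0.00573) and in larval tracheae by 10.43 ± 0.72 (adjusted p = 1.62e-06). The whole flies had 6 *fru* exon reads in all, so the last 2 sizes rest on few reads. Most *fru* transcripts in both sexes come from promoters without sex-specific splicing, and the counts do not separate promoters.

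The ARID-domain gene *retn* ran the other way. It was at 10.9 to 16.03 RPKM in the whole flies, at 3.39, 5.26, 0.388 and 4.14 RPKM in adult tracheae and had no exon reads in larval tracheae. *retn* was at least 132.6-fold higher in adult than in larval tracheae (edgeR, adjusted p = 0.00194) and at least 502-fold lower in larval tracheae than in the whole flies (adjusted p = 8.28e-06). *tra2* and *retn* were called lower in adult tracheae than in the whole flies as well (-1.19, adjusted p = 0.0362 and -1.60, adjusted p = 0.0486), in 15 and 13 of 22 alternatives. The call of *tra2* was lost without adult trachea replicates 1, 2 or 3 or whole fly replicates 1, 2 or 3, and that of *retn* without adult trachea replicates 1, 2 or 4 or any whole fly, with adjusted p = 0.0520 to 0.111.

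Among genes of the dosage compensation complex and *msl-2* control, *how*, an RNA-binding protein that acts with Sxl on *msl-2* RNA, was at 10.8 ± 1.04 RPKM in larval tracheae, 3.10 ± 1.60 RPKM in adult tracheae and 0.435 ± 0.280 RPKM in the whole flies. All of its comparisons passed, with log2 differences of 3.36 ± 0.70 for adult tracheae against whole flies (edgeR, adjusted p = 0.00814), -1.82 ± 0.42 for adult against larval tracheae (adjusted p = 0.00898) and 5.25 ± 0.45 for larval tracheae against whole flies (adjusted p = 6.23e-06). *Hrb27C*, a further RNA-binding corepressor of *msl-2*, was higher in larval tracheae than in the whole flies by 1.46 ± 0.22 (adjusted p = 0.000304). *Clamp*, a zinc finger factor that recruits the complex to the X, was lower in adult tracheae than in the whole flies (-0.98, adjusted p = 0.0437). That call held in 13 of 22 alternatives and was lost without any single whole fly or adult trachea replicate 1, 2 or 4 (adjusted p = 0.0506 to 0.106). The complex genes *msl-1*, *msl-3*, *mle* and *mof* passed in no comparison, and *mle* and *msl-1* stood at 1.95 to 3.23 RPKM on average in all 3 groups. For *msl-3* the difference of adult tracheae from whole flies was -0.94 ± 0.35 (edgeR, adjusted p = 0.0715) and passed in 6 of 22 alternatives. That of larval tracheae from whole flies was -0.57 ± 0.33 (edgeR, adjusted p = 0.176) and passed in 3 of 21.

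The output of the X as a whole was set beside these genes. The median RPKM of 1420 X-linked genes divided by that of 7405 autosomal genes was 0.936, 0.854, 0.859 and 0.870 in adult tracheae, 0.865, 0.881, 0.894 and 0.884 in larval tracheae and 0.941, 1.09, 1.12 and 1.11 in the whole flies. Every whole fly was above every trachea library, and the kinds of trachea overlapped. The log2 difference was -0.27 for adult tracheae against whole flies and -0.27 for larval tracheae against whole flies (exact permutation test, two-sided, p = 0.0286 each, the smallest that 70 splits can give, and 0.0429 adjusted over 3 comparisons). Between adult, all-female and larval, mixed-sex tracheae the log2 difference was -0.0024 (exact permutation test, p = 0.971). With RPKM summed over genes other than the 20 highest in place of medians, the difference of adult tracheae from whole flies was 0.0058 (exact permutation p = 0.886) and that of larval tracheae was -0.044 (exact permutation p = 0.514). The whole flies contain ovaries, whose part in the ratio was not tested.

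The genes whose levels most resembled each member were ranked by Pearson's r of log2(CPM + 1) over the 12 libraries, among 8882 genes. These values describe mostly the differences among the 3 groups, since the libraries share tissue and depth. *Yp1* lay closest to *CG14629* (r = 0.995), followed by *eloF* and *CG4716*, and *Yp2* to *CG3597* (r = 0.997), followed by *Iris* and *eloF*. *Yp3* lay closest to *Iris* (r = 0.998), followed by *Cyp4g1* and *CG15531*, and *fit* to *CG9458* (r = 0.995), followed by *FarO* and *plh*. *roX1* lay closest to *CG17843* (r = 0.984), *hui* and *CG13003*, all of them highest in larval tracheae, and *dsx* to *CG12310* (r = 0.957), *CG31915* and *CG43678*, all highest in adult tracheae. For *Sxl* the nearest genes were *Rap1* (r = 0.959), *CG42231* and *CkIalpha*. For *tra* they were *CG1603* (r = 0.911), *l(2)37Cd* and *RhoGEF4*, and for *msl-2* they were *btsz* (r = 0.834), *CG42232* and *Ostgamma*. *roX2*, with reads in 5 libraries, was not ranked.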

How the data were processed

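The authors reverse transcribed the RNA with oligo(dT) and a cap-finding primer, amplified the cDNA by PCR, sequenced on a NextSeq 500 and mapped to BDGP6 in the CLC Genomics Workbench; its version and the strand are not given in the sources used here. The counts were deposited as unnormalized reads over each gene, its exons and its introns, without molecular identifiers. Floors therefore cover counting error only, whereas the standard errors and SDs also include the spread between libraries. For RPKM the authors scaled total exon reads by exon length and by the gene reads of the library.

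Total exon reads were tested with edgeR 4.0.16 in R 4.3.3 (TMM, quasi-likelihood F-test, genes reaching 10 reads in 2 or more of the 8 libraries). P-values were adjusted by Benjamini-Hochberg over all genes tested. Calls required an adjusted p below 0.05 together with a fold change over 1.5. The standard error was the log2 fold change divided by the square root of F. The files give no exon to 3784 of 17697 genes, *roX1* and *roX2* included, so that these were tested on gene reads. X to autosome ratios took genes with a mean RPKM of at least 1. Groups came from the sample titles. Alternatives used DESeq2 1.42.0, limma 3.58.1, other scalings, filters and reads, the replicate number as a block, and fits without each library; gene reads for the *roX* genes and fits that dropped both adult trachea replicates 3 and 4 were chosen after seeing the data. The fits were tested on simulated data. Genes named are the members, up to 3 called genes per pathway list and comparison with the largest change, and the 3 nearest genes to each member read in at least 6 libraries. Members and lists were chosen with earlier results of these data known. Of 123 listed genes, 120 were found. A listed gene that the naming rule would include is not reported here. TPM columns were not used. Figures were drawn with matplotlib 3.10.9 in Python 3.11.15.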

Additional observations from a re-analysis of the deposited data

Results flagged for a closer look

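In 32 groups of 4 libraries, 3 had a library whose gap to its nearest neighbour took up most of the range of the group. The share expected by chance was about 5% of groups. It bears little on counts near 0, since the only library with reads then takes up the whole range. *roX2* stood at 1.15 RPM (reads scaled to 1000000 gene reads) in adult trachea replicate 4 and at 0 in the other 3 adult trachea libraries. *roX2* stood at 9.05 RPM in whole fly replicate 3, where the next highest whole fly had 1.48. *dsx* stood at 0.176 RPKM in larval trachea replicate 3, from 8 exon reads, where the others had 1 or 2 reads.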

How the results depend on the processing

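Of the single-member results over all alternatives, 577 kept their side of the threshold, 12 lost a call and 10 gained one, and no call reversed. Some differences that were not called changed sign among the 577. *Sxl* in adult tracheae against whole flies, for example, went from 0.29 to -0.52 in limma on log2(RPKM + 0.1). Members higher in adult tracheae than in the whole flies numbered 3 in limma on log2(RPKM + 0.1) and on log2(RPKM + 1), and 4 to 5 when single libraries were left out. Members lower in adult than in larval tracheae numbered 1 by total gene reads, which add *roX1*. Members higher in larval tracheae than in the whole flies numbered 2 by total gene reads and in DESeq2, 0 with all 3 groups in 1 fit and in the 3 limma fits, and 1 to 2 when single libraries were left out. For the X to autosome ratio, adult tracheae against whole flies gave -0.12 with a mean RPKM of at least 5, -0.27 with at least 0.5 (exact permutation p = 0.0571 for both, unadjusted) and 0.0058, a reversal, with summed RPKM, and ran from -0.33 to -0.25 without single libraries. Larval tracheae against whole flies gave -0.044 with summed RPKM and ran from -0.33 to -0.24 without single libraries. Leaving out a library leaves 35 splits, too coarse a scale for the side of the threshold to bear on that library. With the replicate number as a block, *dsx* in adult tracheae against whole flies was 5.07 (edgeR, adjusted p = 0.0634). Same-numbered libraries did not deviate together (correlations from -0.0855 to 0.0436), so the numbers only name libraries. Depth limits *dsx*, *roX2* and, in the whole flies, *roX1*.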
